A study of Homo sapiens with 6 samples.

Results

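The transition from G1 into S phase is set by D-type cyclins, the kinases CDK4 and CDK6, the CDK inhibitors that restrain them, the retinoblastoma protein RB1 and the E2F transcription factors that RB1 holds in check. When cyclin D kinases phosphorylate RB1, E2F1 is released and switches on genes of DNA replication. In triple-negative breast cancer this circuit is often altered, and the CDK4/6 inhibitors used in breast cancer act on it. The 10 genes described here are CCND1, CCND2, CCND3, CDK4, CDK6, CDKN1A, CDKN1B, CDKN2C, RB1 and E2F1. They were chosen by name for their role in this circuit, out of 61806 genes in the table, and all 10 were found. All passed the filter on low counts, CCND2 through its 2 shHMGA2-2 libraries alone. Since the line where it is high let it in, CCND2 is described by its counts below and left out of every count of genes called, which is given for the other 9.

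RNA was sequenced from MDA-MB-231, a human triple-negative breast cancer cell line, after stable lentiviral knockdown of HMGA2, an architectural chromatin protein that binds AT-rich DNA. There were 3 lines with 2 libraries each: shNC, the control, shHMGA2-1 and shHMGA2-2, which carry different short hairpin RNAs against HMGA2. The stable knockdown lines were puromycin-selected and expanded from single clones, so the hairpin and the clone cannot be told apart. The sources used here do not say whether the libraries of a line came from separate cultures, and p-values therefore measure the spread between libraries, which may be technical. The library names of the controls read WT where their titles read shNC, and those of shHMGA2-1 carry SH2; the titles were followed.

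The libraries held 16461178 to 17167293 counts, with 6.74% to 7.86% from mitochondrial genes. HMGA2 was read 2126 and 2161 times in shNC, 858 and 989 times in shHMGA2-1, and 435 and 482 times in shHMGA2-2, so that both knockdown lines lay below shNC and shHMGA2-2 was the lower of them. The 5 genes expected in this cell line (VIM, CD44, EGFR, AXL and CAV1) summed to 799.4 to 919.0 FPKM (reads scaled to exonic length and library total). VIM held 411.32 to 432.07 FPKM of this, and the others moved in both directions. From shNC to shHMGA2-2, EGFR went from 33.33 and 33.63 to 13.07 and 11.89, and AXL from 224.88 and 231.97 to 126.16 and 131.81. CD44 went from 64.86 and 65.97 to 95.84 and 92.56. CAV1 was at 158.22 and 155.32 in shNC and 99.87 and 112.19 in shHMGA2-1. The 5 genes of other breast cancer classes (ESR1, PGR, ERBB2, GATA3 and FOXA1) summed to 8.69 to 8.97 FPKM in shNC, 9.72 to 12.36 in shHMGA2-1 and 14.05 to 15.84 in shHMGA2-2. These 5 genes did not move as one: GATA3 had 58 and 41 counts in shNC and 262 and 318 in shHMGA2-2, whereas FOXA1 had 110 and 94 counts in shNC and 5 and 1 in shHMGA2-2. Leukocyte markers summed to 0.09 to 0.52 FPKM, with CD3E at 0 counts, and endothelial markers to 0.43 to 0.66 FPKM. Fibroblast markers summed to 0.35 to 0.61 FPKM in shNC and shHMGA2-2 and 1.19 to 1.53 in shHMGA2-1, nearly all of it COL1A1, while PDGFRA, DCN and LUM were at 0 counts. The part of these markers in the results below was not tested. The counts of the shHMGA2-1 libraries differed more from each other (chi-square per degree of freedom 6.485) than those of shNC (2.025) or shHMGA2-2 (3.023).

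The upstream windows of 4 genes are shown because these genes stood furthest apart between the lines in the results below, apart from CCND1 and CCND2, for which the RefSeq table used here gave no window. Each is the 250 bases before a RefSeq start (GRCh38.p14), written 5′ to 3′ on the gene's strand. Capitals mark matches on either strand to E2F words (TTTCCCGC, TTTCGCGC, TTTGCCGC or TTTGGCGC) and to the GC box GGGCGG. The E2F1 window lies at chr20:33686386-33686635 on the minus strand, the CDK6 window at chr7:92836574-92836823 on the minus strand, the CDKN1A window at chr6:36678464-36678713 on the plus strand and the CDKN1B window at chr12:12717118-12717367 on the plus strand.
E2F1: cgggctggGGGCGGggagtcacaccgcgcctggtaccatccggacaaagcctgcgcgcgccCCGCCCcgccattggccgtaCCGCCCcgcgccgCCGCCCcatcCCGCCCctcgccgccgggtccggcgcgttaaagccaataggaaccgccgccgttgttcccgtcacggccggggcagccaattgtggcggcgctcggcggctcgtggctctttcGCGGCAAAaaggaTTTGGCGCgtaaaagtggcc
CDK6: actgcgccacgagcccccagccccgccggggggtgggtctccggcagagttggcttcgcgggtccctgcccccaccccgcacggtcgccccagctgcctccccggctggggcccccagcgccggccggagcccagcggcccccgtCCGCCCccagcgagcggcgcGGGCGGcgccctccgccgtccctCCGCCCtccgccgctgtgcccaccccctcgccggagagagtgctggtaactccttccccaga
CDKN1A: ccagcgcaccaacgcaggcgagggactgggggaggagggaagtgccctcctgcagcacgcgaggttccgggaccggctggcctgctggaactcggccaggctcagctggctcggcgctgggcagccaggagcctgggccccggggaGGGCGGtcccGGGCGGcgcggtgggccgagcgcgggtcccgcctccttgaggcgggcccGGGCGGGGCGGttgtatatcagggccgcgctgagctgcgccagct
CDKN1B: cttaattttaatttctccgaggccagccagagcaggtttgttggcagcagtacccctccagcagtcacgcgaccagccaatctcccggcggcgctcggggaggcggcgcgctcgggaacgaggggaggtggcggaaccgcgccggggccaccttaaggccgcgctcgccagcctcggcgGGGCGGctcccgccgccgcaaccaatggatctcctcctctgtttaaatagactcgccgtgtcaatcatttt

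The E2F1 window held 2 matches to the E2F words, side by side near its 3′ end, and 5 GC boxes. Only 2.79% of the 35116 windows of this length in the table held an E2F word, whereas 42.6% held a GC box. The CDKN1A window held 4 GC boxes, the CDK6 window 3 and the CDKN1B window 1, with no E2F word among these letters. The GC content was 80.0% for CDK6, 76.4% for CDKN1A, 72.4% for E2F1 and 64.4% for CDKN1B, against a median of 58.0% over all windows. The CDK4 window held 3 E-boxes (CACGTG), which 6.34% of windows held at least once. For 8 of the 10 genes the table gave 13 windows in all. A match is a string of letters, and binding was not measured here.

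In shNC, CCND1 stood far above the other 9 genes. Its mean level was 192.3 ± 1.54 FPKM (SD, n = 2), followed by CDK4 at 38.6 ± 0.453, RB1 at 22.3 ± 0.856, E2F1 at 18.1 ± 0.127, CDK6 at 16.02 ± 0.347, CDKN2C at 15.6 ± 0.0566, CCND3 at 13.1 ± 0.219, CDKN1A at 8.05 ± 0.679 and CDKN1B at 7.30 ± 0.0141. CCND2 was listed at 0.0 and 0.04 FPKM. No neighbours in this order overlapped between their 2 libraries. In shHMGA2-1 the order became CCND1, CDK4, RB1, CDKN2C, E2F1, CCND3, CDKN1B, CDK6, CDKN1A and CCND2, and CDKN2C overlapped with both of its neighbours. In shHMGA2-2 it ran CCND1, E2F1, CDK4, RB1, CDKN2C, CDK6, CCND3, CDKN1B, CDKN1A and CCND2, with E2F1 and CDK4 overlapping. CDK6 thus stood at rank 5 in shNC and 8 in shHMGA2-1, and E2F1 at rank 4 in shNC and 2 in shHMGA2-2. The order in FPKM depends on the exonic lengths used. In shNC CDKN1B had more counts than CDKN1A, and CDK6 more than CDK4.

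**Figure D1:**
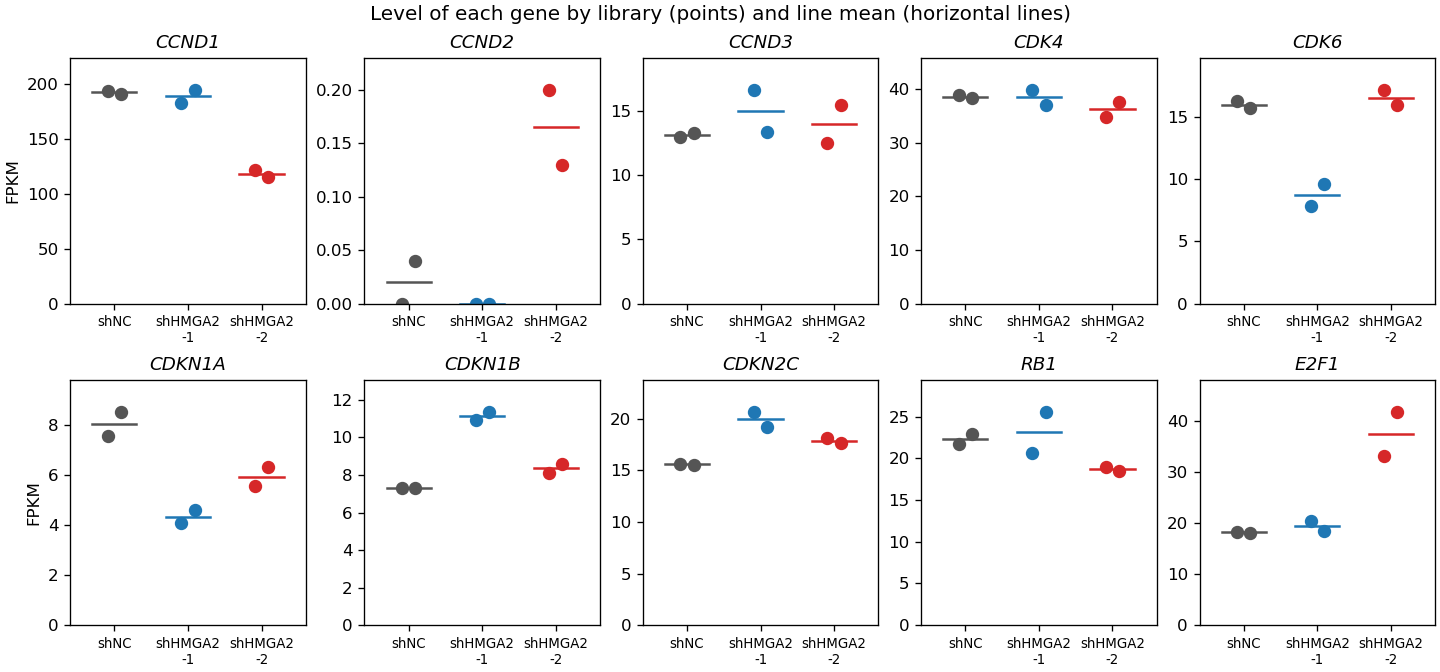
Level in FPKM (y axis, from 0, with a scale of its own for each gene) of the 10 genes in the 2 libraries of shNC, shHMGA2-1 and shHMGA2-2; points are libraries and horizontal lines are line means. CCND1 and RB1 were lower and E2F1 higher in shHMGA2-2, whereas CDK6 was lower and CDKN1B higher in shHMGA2-1.

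The question of each comparison was what a hairpin against HMGA2 changed relative to shNC, and whether the lines differed from each other. Differences were tested with edgeR's quasi-likelihood test on the counts of all 16110 genes that passed the filter, with Benjamini-Hochberg adjustment. A gene was called at an adjusted p under 0.05. All comparisons share libraries, the shNC libraries in particular. In bulk RNA, fewer cells that express a gene and less RNA per cell cannot be told apart.

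In shHMGA2-1 against shNC, 4 of the 9 genes were called: CDK6 and CDKN1A fell, and CDKN1B and CDKN2C rose. Over all genes tested 33.4% were called (17.6% lower and 15.8% higher). None of the genes called among the 9 changed by 2-fold or more, whereas 8.49% of all genes were called with such a change. Leaving out shHMGA2-1 replicate 2 left a single library in that line. The log2 fold changes were then -0.15 for CCND1, 0.26 for CCND3 and -0.19 for RB1, in place of -0.09, 0.12 and -0.01. In shHMGA2-2 against shNC, 5 of 9 were called, against 58.7% of all genes, a share near that background. CCND1, CDKN1A, RB1 and CDK4 were lower, as were 29.2% of all genes, and E2F1 was higher, as were 29.5%. None of the 5 changed by 2-fold or more, whereas 21.3% of all genes were called with such a change. Upper quartile scaling moved the median log2 fold change of all genes in shHMGA2-2 up by 0.115, and the split of the 9 genes was then 3 lower and 2 higher in place of 4 and 1. With limma on log2(FPKM + 1) it was 2 and 2.

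Between the knockdown lines themselves, 7 of the 9 genes were called in shHMGA2-2 against shHMGA2-1, where 50.2% of all genes were. E2F1, CDK6 and CDKN1A were higher in shHMGA2-2 (24.5% of all genes were), and CCND1, CDKN1B, RB1 and CDKN2C were lower (25.7%). CCND3 and CDK4 were not called. Without shHMGA2-1 replicate 2 their log2 fold changes were -0.293 and -0.179, in place of -0.155 and -0.143. None of the 9 differed by 2-fold or more, as 15.1% of all genes did. The libraries of the lines compared did not overlap for 6 of the 9 genes in shHMGA2-1 against shNC, 7 in shHMGA2-2 against shNC and 8 between the knockdown lines, on the scale of TMM-scaled counts per library size (CPM). Over all genes tested these shares were 64.5%, 79.8% and 72.6%.

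**Figure D2:**
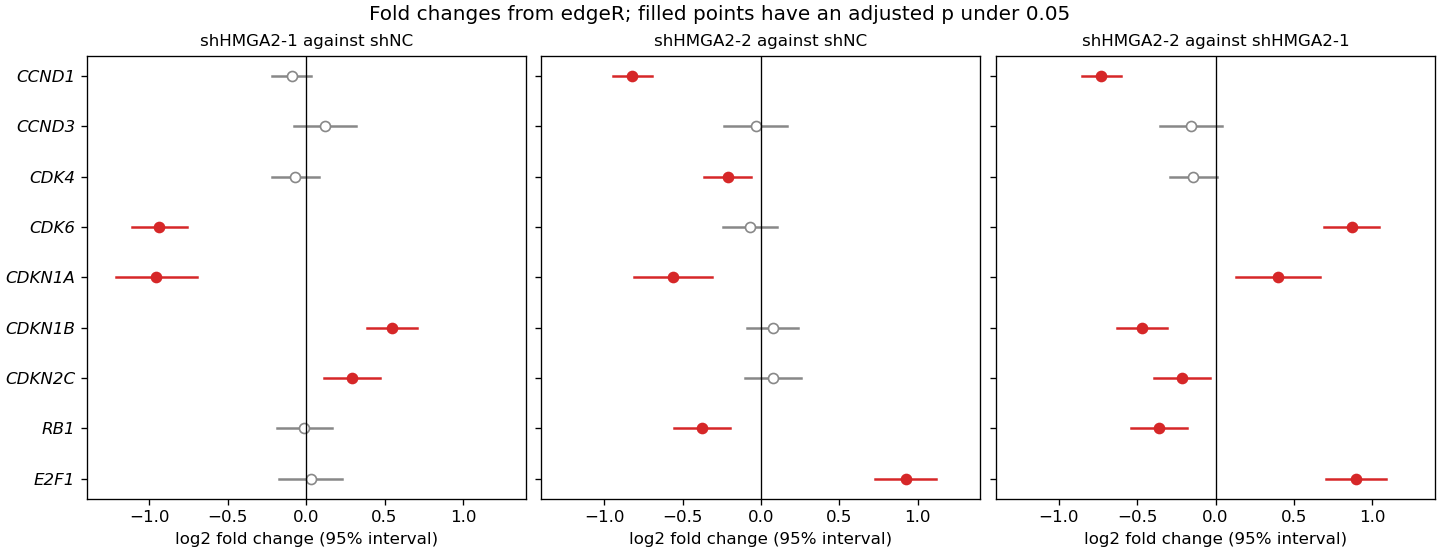
Log2 fold change with its 95% interval (x axis) of 9 of the 10 genes (y axis; CCND2, at most 26 counts, is left out) in shHMGA2-1 against shNC, shHMGA2-2 against shNC and shHMGA2-2 against shHMGA2-1. Filled points have an adjusted p under 0.05; CDKN1A lies left of 0 in both comparisons with shNC, whereas CDK6 does so at -0.94 in shHMGA2-1 and CCND1 at -0.82 in shHMGA2-2.

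Among the cyclins, CCND1, which encodes cyclin D1 and is the D-type cyclin most often amplified in breast cancer, was lower in shHMGA2-2. CCND1 (ENSG00000110092) is a plus-strand gene of chromosome 11 (69641156 to 69654474). It was read 15627 and 15456 times in shNC, 14935 and 15854 times in shHMGA2-1, and 9502 and 9088 times in shHMGA2-2. Both shHMGA2-2 libraries lay far below the other 4, while shHMGA2-1 spanned the shNC counts before scaling and lay just below them in CPM. The log2 fold change of CCND1 was -0.82 ± 0.06 (SE) in shHMGA2-2 against shNC (1.77-fold lower, adjusted p = 2.36e-11, edgeR). Against shHMGA2-1 it was -0.73 ± 0.06 (adjusted p = 3.25e-10). In shHMGA2-1 against shNC it was -0.09, with a 95% interval from -0.22 to 0.03 (adjusted p = 0.261). LTO1 overlaps CCND1 on the opposite strand and held 563 to 698 counts in every library.

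CCND3 (ENSG00000112576; chromosome 6, minus strand, 41934934 to 42050357), which encodes cyclin D3, was not called in any of these comparisons. Its counts were 1269 and 1300 in the control libraries, 1641 and 1312 in the shHMGA2-1 libraries, and 1184 and 1472 in those of shHMGA2-2. Each knockdown line spanned a wider range than shNC, and the lines overlapped. The 95% interval of the log2 fold change of CCND3 ran from -0.08 to 0.32 in shHMGA2-1 and from -0.23 to 0.17 in shHMGA2-2.

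CCND2 (ENSG00000118971; chromosome 12, plus strand, 4269771 to 4305353), which encodes cyclin D2, was nearly silent in this cell line. It had 0 and 5 counts in the control libraries, 0 and 0 in the shHMGA2-1 libraries, and 26 and 17 in those of shHMGA2-2, so that both shHMGA2-2 libraries lay above the other 4. The observed mean of shHMGA2-2 was 7.18-fold above a floor of 3 counts per library in shHMGA2-1. This ratio leaves out the counting error of the shHMGA2-2 counts and is no lower bound. These values are a description with no test, because the gene entered the table of tested genes only through shHMGA2-2, and the counts of shNC and shHMGA2-1 were too few for a fold between them. At 0.13 to 0.20 FPKM in shHMGA2-2, CCND2 was a very small part of the D-type cyclin messages beside CCND1.

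Of the kinases, CDK6 fell in shHMGA2-1 and CDK4 changed by far less. CDK6 (ENSG00000105810) is a minus-strand gene of chromosome 7 (92604921 to 92836573), just downstream of the window printed above. It was read 3378 and 3278 times in shNC, 1644 and 2021 times in shHMGA2-1, and 3461 and 3243 times in shHMGA2-2. The shHMGA2-1 libraries were apart from the other 4, and shHMGA2-2 spanned shNC. The log2 fold change of CDK6 in shHMGA2-1 against shNC was -0.94 ± 0.08 (1.92-fold lower, adjusted p = 4.02e-09). In shHMGA2-2 against shNC it was -0.07, with an interval from -0.24 to 0.10 (adjusted p = 0.496), and the lines differed by 0.87 ± 0.08 (adjusted p = 6.02e-09). The antisense gene CDK6-AS1 held 0 to 10 counts.

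CDK4 (ENSG00000135446; chromosome 12, minus strand, 57747727 to 57756013) is the kinase partner of D-type cyclins with the higher FPKM here. Its exonic length was 3094 bases against 12239 for CDK6, which had more counts in shNC and shHMGA2-2. CDK4 had 2045 and 2012 counts in the control libraries, 2117 and 1969 in the shHMGA2-1 libraries, and 1778 and 1927 in those of shHMGA2-2. Both shHMGA2-2 counts lay below the other 4. Its log2 fold change in shHMGA2-2 was -0.21 ± 0.07 (adjusted p = 0.0146). This call was lost in 6 of 15 alternatives, among them upper quartile scaling, with -0.10 (adjusted p = 0.253), and the fits without an shNC library (adjusted p = 0.106 and 0.0823) or without shHMGA2-2 replicate 1 (0.13). In shHMGA2-1 the interval of CDK4 ran from -0.22 to 0.08. TSPAN31 with 200 to 248 counts and MARCHF9 with 67 to 224 counts overlap CDK4 on the opposite strand, and the strand setting of the counting was not given in the sources used here.

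In shHMGA2-1 CDKN1A fell while the CDK inhibitor genes CDKN1B and CDKN2C rose, and in shHMGA2-2 CDKN1A was the only one of these 3 that was called against shNC. CDKN1A (ENSG00000124762; chromosome 6, plus strand, 36676460 to 36687337) encodes p21, an inhibitor of cyclin-CDK complexes. It was read 385 and 434 times in shNC, 209 and 236 times in shHMGA2-1, and 274 and 313 times in shHMGA2-2. The lines did not overlap, with shNC highest and shHMGA2-1 lowest. The log2 fold change was -0.96 ± 0.13 in shHMGA2-1 (1.94-fold lower, adjusted p = 1.56e-06) and -0.56 ± 0.12 in shHMGA2-2 (1.48-fold lower, adjusted p = 0.000333). Between the lines CDKN1A differed by 0.40 ± 0.13 (adjusted p = 0.0130). That call was lost without shHMGA2-1 replicate 1 (adjusted p = 0.0884) and without shHMGA2-2 replicate 2 (0.14).

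CDKN1B (ENSG00000111276; chromosome 12, plus strand, 12685498 to 12722369) encodes p27, which binds cyclin E-CDK2 and is degraded as cells enter S phase. Its counts were 1149 and 1145 in the control libraries, 1734 and 1803 in the shHMGA2-1 libraries, and 1233 and 1322 in those of shHMGA2-2. The shHMGA2-1 libraries were well above the other 4, and shHMGA2-2 was slightly above shNC. CDKN1B rose by 0.55 ± 0.08 on the log2 scale in shHMGA2-1 (1.46-fold, adjusted p = 5.29e-06), and the lines differed by -0.47 ± 0.08 (adjusted p = 1.63e-05). In shHMGA2-2 against shNC the log2 fold change was 0.07 (interval -0.09 to 0.24, adjusted p = 0.434); with upper quartile scaling it was 0.19 (adjusted p = 0.0387).

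CDKN2C (ENSG00000123080; chromosome 1, plus strand, 50960745 to 50974634) encodes p18INK4C, an inhibitor of CDK4 and CDK6. It was read 801 and 797 times in shNC, 1072 and 994 times in shHMGA2-1, and 900 and 883 times in shHMGA2-2. The counts were highest in shHMGA2-1, intermediate in shHMGA2-2 and lowest in shNC, without overlap. In shHMGA2-1 CDKN2C rose by 0.29 ± 0.09 on the log2 scale (1.22-fold, adjusted p = 0.0108), a call lost without either shNC library (adjusted p = 0.102 and 0.105). Its difference between the lines, -0.21 ± 0.09 (adjusted p = 0.0410), was called in the 3-group model but lost in 14 of 15 alternatives, including the model with the replicate number as a block (adjusted p = 0.0751). In shHMGA2-2 against shNC the interval of CDKN2C ran from -0.10 to 0.26; limma on log2(FPKM + 1) called it at 0.19 (adjusted p = 0.0278).

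RB1 (ENSG00000139687; chromosome 13, plus strand, 48303744 to 48599436), the pocket protein that cyclin D kinases phosphorylate, was detected in every library, and its level was lower in shHMGA2-2. It was read 2371 and 2504 times in shNC, 2279 and 2820 times in shHMGA2-1, and 2004 and 1974 times in shHMGA2-2. Both shHMGA2-2 libraries lay below the other 4, and the shHMGA2-1 libraries lay on either side of shNC. The log2 fold change of RB1 in shHMGA2-2 against shNC was -0.37 ± 0.09 (adjusted p = 0.000655), and limma on log2(FPKM + 1) did not call it (-0.24, adjusted p = 0.0771). Between the lines RB1 differed by -0.36 ± 0.09 (adjusted p = 0.00112), which shrank to -0.18 without shHMGA2-1 replicate 2 (adjusted p = 0.0259). Here too limma did not call RB1, with -0.28 on log2(FPKM + 1) (adjusted p = 0.0562) and an adjusted p of 0.055 on log2(FPKM + 0.1). In shHMGA2-1 against shNC the interval ran from -0.19 to 0.16. RCBTB2, with 90 to 128 counts, overlaps RB1 on the opposite strand.

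E2F1 (ENSG00000101412; chromosome 20, minus strand, 33675477 to 33686385), the transcription factor that RB1 restrains and the gene whose upstream window held the 2 E2F words, was higher in shHMGA2-2. It was read 832 and 824 times in shNC, 937 and 847 times in shHMGA2-1, and 1462 and 1865 times in shHMGA2-2. Both shHMGA2-2 libraries stood above the other 4, and they also differed from each other more than the shNC libraries did. The log2 fold change of E2F1 was 0.92 ± 0.09 in shHMGA2-2 against shNC (1.90-fold, adjusted p = 8.67e-09) and 0.90 ± 0.09 against shHMGA2-1 (adjusted p = 2.03e-08). In shHMGA2-1 against shNC it was 0.03, with an interval from -0.17 to 0.23 (adjusted p = 0.865).

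Set per length, the make-up of each step of the circuit differed between the lines in ways that followed these genes. CCND1 held 93.7% and 93.5% of the summed FPKM of the 3 D-type cyclins in the control libraries, 91.7% and 93.6% in the shHMGA2-1 libraries, and 90.5% and 88.1% in those of shHMGA2-2. The summed level itself was 206.3 and 204.5 FPKM in the control libraries, 199.3 and 207.8 in the shHMGA2-1 libraries, and 133.9 and 130.6 in those of shHMGA2-2. D-type cyclin message was thus lower in shHMGA2-2 and made up mostly of CCND1 in every library.

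CDK6 held 29.5% and 29.2% of the summed CDK4 and CDK6 level in the control libraries, 16.4% and 20.6% in the shHMGA2-1 libraries, and 33.0% and 29.8% in those of shHMGA2-2. In FPKM CDK4 exceeded CDK6 in every library, by 2.03-fold to 2.43-fold in shNC and shHMGA2-2 and by 3.85-fold and 5.10-fold in shHMGA2-1. FPKM of CDKN1B per FPKM of CDKN1A was 0.966 and 0.855 in the control libraries. It was 2.69 and 2.47 in the shHMGA2-1 libraries, and 1.46 and 1.37 in those of shHMGA2-2. The lines did not overlap in this ratio, which was highest in shHMGA2-1. Its size depends on the exonic lengths used, 9255 bases for CDKN1B and 2996 for CDKN1A. In counts CDKN1B exceeded CDKN1A in every library.

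The 3 CDK inhibitors summed to 30.5 and 31.4 FPKM in the control libraries, 35.7 and 35.2 in the shHMGA2-1 libraries, and 31.8 and 32.6 in those of shHMGA2-2. D-type cyclin level per inhibitor level was 6.76 and 6.52 in the control libraries, 5.59 and 5.90 in the shHMGA2-1 libraries, and 4.22 and 4.01 in those of shHMGA2-2. E2F1 per RB1 was 0.839 and 0.787 in the control libraries, 0.983 and 0.718 in the shHMGA2-1 libraries, and 1.75 and 2.26 in those of shHMGA2-2. These ratios of FPKM are descriptions with 2 libraries a line, and they carry no test. The sums, shares and ratios of FPKM also depend on the exonic lengths used.

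**Figure D3:**
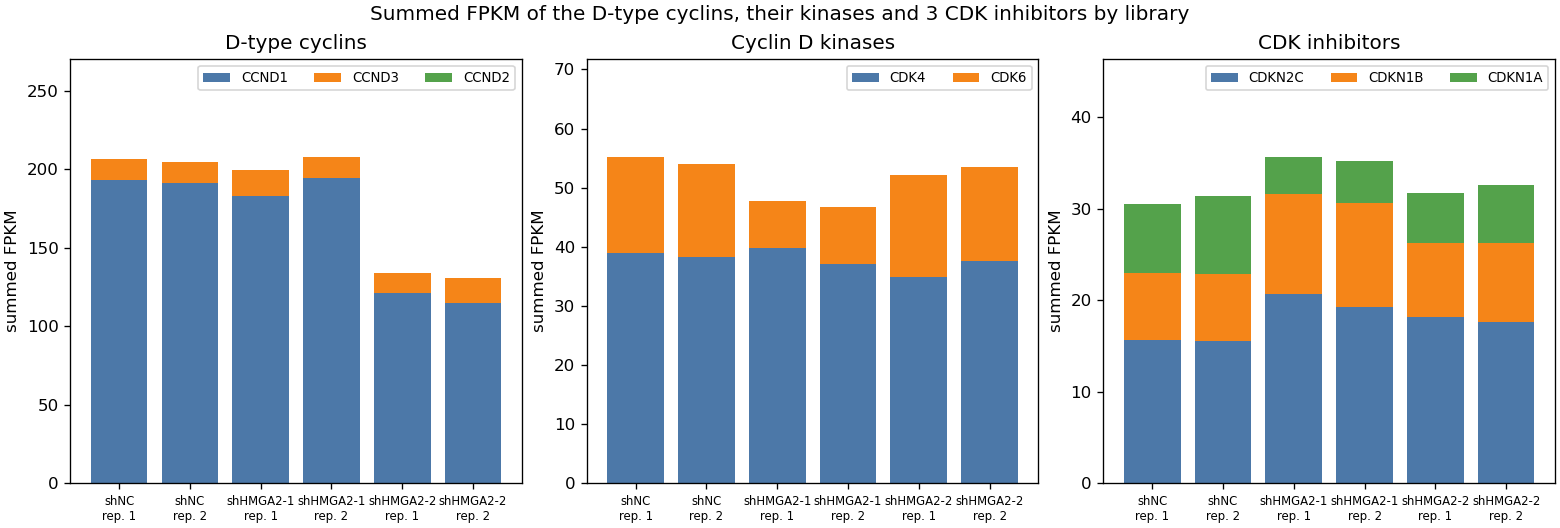
Summed FPKM (y axis, from 0) of the D-type cyclins, of CDK4 and CDK6, and of CDKN2C, CDKN1B and CDKN1A in each of the 6 libraries (x axis); colours are genes. The D-type cyclin bars of shHMGA2-2 stand at 130.6 and 133.9, below the other 4 libraries, and the CDK6 part is thinnest in shHMGA2-1.

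When both knockdown lines were taken as a single group of 4 libraries against shNC, 0 of the 9 genes were called by edgeR, where 5.26% of all genes were and 3.09% also changed by 2-fold or more. At an unadjusted p under 0.05 the count was 1, and DESeq2 called 1; in both cases this was CDKN1A, at -0.75 ± 0.18 in edgeR (adjusted p = 0.0707) and -0.76 in DESeq2 (adjusted p = 0.0091). The mean of the line contrasts, which uses the spread within lines, called 7 of the 9. It called 8015 of all 16110 genes, and DESeq2 called 2268 of them. The common biological coefficient of variation was 0.291 in the 2-group model and 0.0583 in the 3-group model, so that differences between the knockdown lines entered the error of the former.

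The other genes of the pathway were taken from lists, of which the counts called, the median log2 fold change and the same median over all genes tested (0.01 in shHMGA2-1, 0.03 in shHMGA2-2 and 0.00 between the lines) are given. Each count is to be read against the shares of all genes tested. These were 15.8% higher and 17.6% lower in shHMGA2-1, and 29.5% higher and 29.2% lower in shHMGA2-2. Fits without an shNC or an shHMGA2-2 library called fewer of all genes in both comparisons with shNC. The list counts of those fits are not to be read against these shares. The cyclin E, cyclin A and CDK2 machinery follows cyclin D in G1 and S phase. Of its 11 genes 2 rose and 0 fell in shHMGA2-1 (median 0.05), and 3 rose and 4 fell in shHMGA2-2 (median -0.10). The shares called were 18.2% and 63.6%, against 33.4% and 58.7% of all genes. The count called in shHMGA2-1 was 1 with DESeq2, with the replicate block and without either shNC library. CCNE2, encoding cyclin E2, had 864 and 875 counts in the control libraries, 828 and 942 in the shHMGA2-1 libraries, and 497 and 527 in those of shHMGA2-2, with a log2 fold change of -0.84 ± 0.10 in shHMGA2-2 (adjusted p = 6.09e-08). CCNA1 fell by 1.76 ± 0.19 on the log2 scale in the same line. The phosphatase gene CDC25A rose by 0.66 ± 0.08 there and SKP2, the F-box protein that targets p27 for degradation, by 0.59 ± 0.08.

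Of 5 other CDK inhibitors, CDKN2A and CDKN2B had 0 counts in every library, which allows at most 3 counts in each. CDKN3 rose by 0.24 ± 0.08 in shHMGA2-1 (adjusted p = 0.0232), a call lost in 4 of 15 alternatives, and CDKN1C rose by 1.84 ± 0.45 in shHMGA2-2 from 8 and 9 to 36 and 29 counts (adjusted p = 0.00114). CDKN2D was not called in either, at -0.12 ± 0.13 in shHMGA2-1 and 0.04 ± 0.13 in shHMGA2-2. The count was thus 1 of 3 tested in each line (33.3%, against 33.4% of all genes in shHMGA2-1 and 58.7% in shHMGA2-2), and in shHMGA2-1 it was 0 with DESeq2 and without either shNC library.

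Other pocket proteins, E2F and DP factors were called in 9 of 11 cases in shHMGA2-1 (4 rose and 5 fell, median -0.07) and in 8 of 11 in shHMGA2-2 (3 rose and 5 fell, median -0.05), the latter count being 5 without shNC replicate 1. These were 81.8% and 72.7% of the list, where 33.4% and 58.7% of all genes were called. TFDP1, the dimerization partner with which E2F1 binds DNA, was singled out after its values were seen; it fell by 0.61 ± 0.06 in shHMGA2-1 and by 1.14 ± 0.07 in shHMGA2-2 on the log2 scale. Its level was 72.39 and 75.17 FPKM in the control libraries, 50.63 and 50.77 in the shHMGA2-1 libraries, and 35.96 and 36.92 in those of shHMGA2-2. TFDP1 was therefore lowest in the line where E2F1 was highest. E2F7, a repressive E2F, fell by 0.75 ± 0.08 and 1.24 ± 0.08 in the lines, and E2F5 fell by 1.47 ± 0.12 in shHMGA2-2, while E2F6 rose by 0.44 ± 0.10 and 0.57 ± 0.10.

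The replication genes that E2F factors are known to activate moved in both directions. Of 19 such genes 2 rose and 5 fell in shHMGA2-1 (median -0.05), and 10 rose and 5 fell in shHMGA2-2 (median 0.20). In shHMGA2-1 36.8% of the list was called, near the 33.4% of all genes, and in shHMGA2-2 78.9%, against 58.7%; the 5 that fell there lie near the 29.2% of all genes that were lower. Between the lines 8 were higher and 2 lower in shHMGA2-2 (median 0.13), 52.6% in all against 50.2% of all genes. In shHMGA2-1 the direction depended on scaling, with 6 higher and 2 lower under upper quartile scaling. Under the same scaling 12 were higher and 2 lower in shHMGA2-2. Fewer genes of the list were called in either line without an shNC library, and in shHMGA2-2 without its replicate 1. Fewer of all genes tested were called in those fits too.

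MCM7, a subunit of the replicative helicase, rose by 0.65 ± 0.06 in shHMGA2-2, from 56.34 and 57.17 FPKM to 94.25 and 99.16. PCNA, the sliding clamp, rose by 0.40 ± 0.06. Against this, RRM1, a subunit of ribonucleotide reductase, fell by 0.46 ± 0.06 and CDC6, which loads the helicase onto origins, by 0.44 ± 0.06 in shHMGA2-2. In shHMGA2-1 MCM6 rose by 0.21 ± 0.06 and RRM2 by 0.19 ± 0.06, and CHAF1A fell by 0.38 ± 0.07 and TYMS by 0.27 ± 0.07. The MCM6 and RRM2 calls were each lost in 2 of 15 alternatives and that of TYMS in 1. E2F1 itself was not called in that line.

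**Figure D4:**
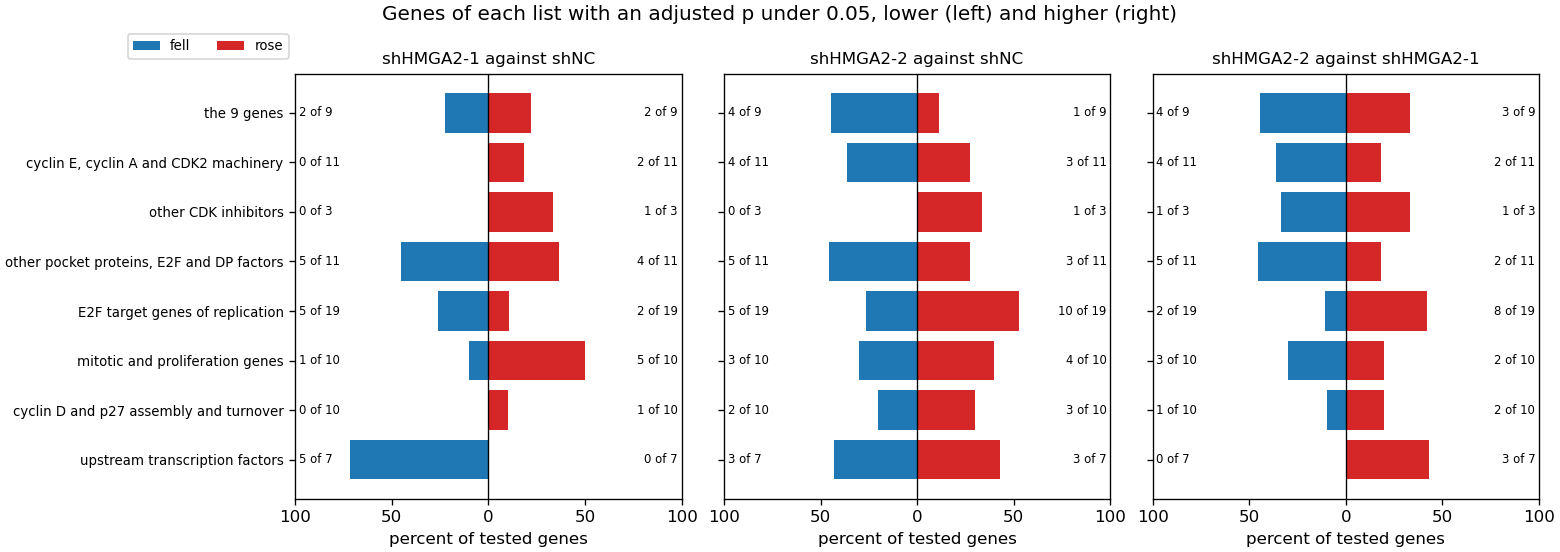
Percent of tested genes (x axis) of the 9 genes other than CCND2 and of each pathway list (y axis) with an adjusted p under 0.05, lower to the left and higher to the right, in each comparison; the numbers give genes called of genes tested. The E2F targets show 10 of 19 higher in shHMGA2-2 and 2 of 19 in shHMGA2-1, and most lists hold genes called in both directions in the comparisons of shHMGA2-2.

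Among 10 mitotic and proliferation genes, 5 rose and 1 fell in shHMGA2-1 (median 0.09), and 4 rose and 3 fell in shHMGA2-2 (median 0.11). The shares called were 60.0% and 70.0%, against 33.4% and 58.7% of all genes. MKI67, the gene of the Ki-67 antigen, fell by 0.60 ± 0.07 on the log2 scale in shHMGA2-2. In shHMGA2-1 it fell by 0.18 ± 0.07, a call lost in 9 of 15 alternatives. CCNB1 rose by 0.32 ± 0.06 in shHMGA2-1 and by 0.31 ± 0.06 in shHMGA2-2, and BUB1 rose by 0.32 ± 0.06 in shHMGA2-1. These calls were lost in 0 of 15 alternatives. CDK1 fell by 0.44 ± 0.07 in shHMGA2-2. In that line CDC20 rose by 0.50 ± 0.07 and AURKA by 0.46 ± 0.06. The count in shHMGA2-1 fell from 6 to 2 with DESeq2, with the replicate block and without shNC replicate 1. It fell to 3 with DESeq2 size factors, with the 2 lines alone, and without shNC replicate 2 or either shHMGA2-2 library. Cell cycle phase was not measured, and its part in the values of the 10 genes was not tested.

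Of 10 genes for the assembly and turnover of cyclin D and p27, 1 rose and 0 fell in shHMGA2-1 (median 0.03), and 3 rose and 2 fell in shHMGA2-2 (median 0.08). These 1 and 5 genes called of 10 stand against 33.4% and 58.7% of all genes. GSK3B, a kinase that marks cyclin D1 for degradation, fell by 0.73 ± 0.08 in shHMGA2-2. UBAC1, part of a ubiquitin ligase for p27, rose by 0.54 ± 0.10 and 0.68 ± 0.10, and FBXO4 rose by 0.76 ± 0.15 in shHMGA2-2. Under upper quartile scaling the split in shHMGA2-2 was 6 higher and 1 lower, and without shNC replicate 1 the count called was 3.

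Of 7 upstream transcription factors, 0 rose and 5 fell in shHMGA2-1 (median -0.29), and 3 rose and 3 fell in shHMGA2-2 (median -0.12). The shares called were 71.4% and 85.7%, against 33.4% and 58.7% of all genes. FOXO3, a forkhead factor known to activate CDKN1B, fell by 0.88 ± 0.10 and 0.67 ± 0.10. Its part in the values of CDKN1B was not tested. ZBTB17, which encodes MIZ1, rose by 0.54 ± 0.11 in shHMGA2-2. The count called in shHMGA2-1 was 3 with DESeq2, upper quartile scaling or limma, 3 without shNC replicate 1 or shHMGA2-1 replicate 1, and 2 without shNC replicate 2. In shHMGA2-2 it was 3 without shNC replicate 1 and 2 without shHMGA2-2 replicate 2.

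Other genes followed the pattern of a given member over the 6 libraries. Likeness was the root mean square difference of log2 CPM after centring each gene on its mean. Nearest to CCND1 were EIF3H (0.021), TTF2 and DEGS1, and 217 genes lay within 0.1. Nearest to E2F1 were CENPS (0.0626), SAMD10 and TRAF2, with 38 genes within 0.1. CDK6 had NFKBIZ (0.0808), TRDMT1 and HIVEP2 and just 7 genes within 0.1, and CDKN1A had IRAK4 (0.0626), SNX29 and ATP1B1, with 11.

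For CDKN1B the nearest were FRAT2 (0.0322), GOT1 and MED7, with 82 genes within 0.1. For RB1 they were UBLCP1 (0.0279), SPIN4 and STAM, with 354, and for CDKN2C BRPF3 (0.024), FCHSD2 and MDH1, with 541. Among these 7 genes, CDK6 and CDKN1A had the fewest genes within 0.1, and RB1 and CDKN2C the most. The measure was not computed for CCND3 and CDK4. No gene lay within 0.1 of CCND2, whose counts were few. These points share the 6 libraries and carry no test.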

How the data were processed

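RNA of 6 MDA-MB-231 libraries was captured as mRNA and sequenced. The authors deposited a table of raw counts and FPKM values per gene; the FPKM values were recomputed from counts, exonic length and library total for 100% of values (tolerance 0.0051). The submitters' processing notes name HISAT2 2.2.1, HTSeq 0.6.1 and GRCh38.p13; the annotation version and strand setting were not given in the sources used here, so reads shared with overlapping genes may be counted either way. Sample columns not used numbered 0, and 20417 genes had no symbol.

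Counts of deposited genes were tested with edgeR 4.0.16 in R 4.3.3: TMM normalization (factors 0.958 to 1.05), filterByExpr by line, a model with 3 groups, the quasi-likelihood test and Benjamini-Hochberg adjustment over 16110 genes. A further fit took both knockdown lines as a single group. Standard errors came from the log2 fold change and its F statistic. Depth was 16461178 to 17167293 counts; the floor of 3 counts covers counting error only. Counts of genes called leave out CCND2, whose libraries reached the filter in a single line. The script was tested on simulated data. The alternatives were DESeq2 1.42.0, upper quartile scaling and DESeq2 size factors in edgeR, no filter, a mean FPKM of at least 1, limma 3.58.1 on log2(FPKM + 1) or log2(FPKM + 0.1), the replicate number as a block, each library left out, fits of the lines compared alone, and the mean of the line contrasts.

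The 10 genes and all lists were chosen with earlier results of these data known. Besides the 10 genes and HMGA2, up to 2 genes that rose and 2 that fell most among those called in each list were named, all genes of lists of 5 or fewer, the 3 nearest patterns of each gene called between the knockdown lines, and overlapping genes. TFDP1 met this rule between the knockdown lines but not in the comparisons with shNC, for which it was described. A gene list and some list members are not reported here. Upstream sequences came from RefSeq (GRCh38.p14); gene coordinates are those of the deposited table.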

Additional observations from a re-analysis of the deposited data

Results flagged for a closer look

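For 7 of the 9 genes other than CCND2 the response differed between the hairpin lines, by the edgeR test of shHMGA2-2 against shHMGA2-1 over 16110 genes. The same test called 50.2% of all genes. The log2 fold change of that contrast was 0.8958 for E2F1, 0.8688 for CDK6 and 0.3964 for CDKN1A, which were higher in shHMGA2-2. It was -0.7295 for CCND1, -0.4717 for CDKN1B, -0.3611 for RB1 and -0.2135 for CDKN2C, which were lower. The adjusted p-values, given with each gene in the report, ran from 3.25e-10 for CCND1 to 0.0410 for CDKN2C. The CDKN2C call was lost in 14 of 15 alternatives, and those of CDKN1A and RB1 in 2 of 15 each. The fitted value for CCND2 was 7.41, against a line at 0 counts; CCND2 passed the filter on low counts only through shHMGA2-2, so this value is a description and supports no difference. Hairpin, clone and degree of knockdown differ together between these lines and cannot be told apart. In no line could a single library be tested for standing apart, since each line had 2.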

How the results depend on the processing

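For the genes called among the 9 other than CCND2, 212 repeats under an alternative kept direction and call and 28 kept direction and lost the call, and none changed sign. CCND1, CDK6, CDKN1B and E2F1 kept every call, in all alternatives that were run, as did CDKN1A in each comparison with shNC. CCND2 could not be fitted with a mean FPKM of at least 1. For those not called, 269 repeats kept the outcome, 16 became called and 15 changed sign. RB1 in shHMGA2-1 became 0.0511 with upper quartile scaling and 0.0415 and 0.0428 with limma (pseudocounts 1 and 0.1), and ranged from -0.191 to 0.148 when a library was left out. In shHMGA2-2 CCND3 became 0.0813, 0.0736 and 0.078 and CDK6 0.0459, 0.046 and 0.0485 under these settings, and CCND3 ranged from -0.183 to 0.0947 when a library was left out. In shHMGA2-1 CCND3 then ranged from -0.0321 to 0.259, E2F1 from -0.0299 to 0.0841 and CCND2 from -5.43 to 0. In the single-group comparison CCND3 then ranged from -0.0335 to 0.112, and CCND2 became -0.738 in the mean of the line contrasts. The causes of these changes were not tested. CCND2 is left out of the numbers of repeats given above. Its values here rest in part on 0 and 5 counts in shNC and 0 and 0 in shHMGA2-1, too few for a fold. They describe the fits alone and support no change or direction.

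When a library was left out, 3283 to 5795 genes were called in shHMGA2-1 (5388 with all), and 3 to 7 of the 9. In the single-group comparison 848 genes were called. The count was 4 to 822 with a library left out, 2268 with DESeq2, and 8015 in the mean of the line contrasts, where 7 of the 9 were called, against 1 with DESeq2. Upper quartile scaling turned the split of all genes from 2843 lower and 2545 higher to 2278 and 3253 in shHMGA2-1, and from 4704 and 4760 to 3884 and 5810 in shHMGA2-2. limma on log2(FPKM + 1) gave 1776 and 2389 in the former and 3544 and 5473 in the latter.

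Libraries of the same replicate number showed no strong shared deviation: deviations from the line means correlated at -0.0218, 0.00213 and -0.1 between lines. The sources used here do not say whether such libraries were prepared together. With the replicate block, 152 genes were called in the single-group comparison in place of 848, and among the 9 genes the block ended a single call, CDKN2C between the lines.

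With 2 libraries a line, small differences such as those of CDK4 and CDKN2C lie near what these data resolve, and CCND2 rests on at most 26 counts a library.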
